A study of Mus musculus with 15 samples.

Results

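The genes described here are 31 mouse genes of autophagy, its receptors and the lysosome, which are tied to the loss of organelles in lens fibre cells. They were taken from a list of names and make up 31 of the 22342 protein-coding genes of chromosomes 1 to 19 and X in the GENCODE annotation of mm9. All 31 were found, with Tfeb under the older symbol Tcfeb. Values were read in a window that holds the gene body and 10 kb to each side, and at the promoter, taken as 2 kb to either side of any protein-coding start of the gene. Windows were 21777 to 308639 bp long, with a median of 49803 bp against 35427 bp over all genes. The window of 16 members also holds the start of another protein-coding gene. For 6 members such a start lies within 2 kb of their own: Slc35a5 at Atg3, Ap3s1 at Atg12, Harbi1 at Atg13, Mgat4b at Sqstm1, 4732440D04Rik at Rb1cc1 and Brca1 at Nbr1, so that a peak there cannot be given to either gene alone.

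ChIP-seq lists were given for Pax6, a homeodomain and paired domain factor of eye development, for RNA polymerase II (Pol2) and for methylation of lysine 4 of histone H3 (H3K4) in αTN4 cells and newborn mouse lens. αTN4 is a mouse lens epithelial line transformed by SV40 T antigen. The cells carried a lentiviral control shRNA (control) or an shRNA against Pax6 (Pax6 KD), each as a puromycin-selected population, and the lens chromatin came from CD-1 mice at postnatal day 1. Control cells gave lists for Pax6, Pol2, H3K4me1, H3K4me2 and H3K4me3, Pax6 KD cells for the 3 histone marks, and lens for H3K4me2. The level of Pax6 left in Pax6 KD cells was not analysed here. The Pax6 and Pol2 libraries carry each other's name in their antibody field, and they were assigned here by their titles.

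Autophagy encloses part of the cytoplasm in a double membrane and delivers it to the lysosome. The Ulk kinases with Atg13 and Rb1cc1 start the process, the lipid kinase Pik3c3 with Becn1 marks the membrane, Wipi proteins read that mark, and conjugation enzymes attach Atg8-family proteins to the growing membrane. Receptors such as Sqstm1 and Bnip3l bring the cargo, and Rab7, Fyco1 and the Vps proteins carry the finished vesicle to the lysosome for fusion. Differentiating lens fibres remove nuclei, mitochondria and endoplasmic reticulum from the light path. H3K4me3 marks active promoters, H3K4me2 both promoters and enhancers, and H3K4me1 mainly enhancers and the flanks of promoters.

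The palindrome CACGTG, an E-box bound by Tfeb and related factors, and the longer word TCACGTGA, close to the CLEAR element of lysosomal genes, were searched in both strands from 250 bases before to 50 after the start. These promoters come from RefSeq (GRCm38.p6) and were placed in mm9 by their sequence. A promoter was given for 23 members. CACGTG was found in 6 of the 23 (Atg3, Atg5, Atg7, Bnip3, Lamp1 and Vps33a), against 8.09% of all genes of the table and 12.4% of those with H3K4me3 at the promoter in control cells. TCACGTGA, which contains CACGTG, was found in Atg3 and Vps33a, against 1.12% and 2.46%. Stretches with the E-boxes in capitals are shown to let their number and spacing be seen, in mm9 and on the strand of the gene. The RefSeq start of Atg7 lies inside the gene and outside the promoter peaks, and its stretch is not shown.
Lamp1, chr8:13159070-13159160, forward strand: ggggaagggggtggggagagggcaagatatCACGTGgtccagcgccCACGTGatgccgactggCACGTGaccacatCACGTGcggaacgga
Vps33a, chr5:124023025-124023082, reverse strand: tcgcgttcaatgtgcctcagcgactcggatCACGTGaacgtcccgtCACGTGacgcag
Atg3, chr16:45158818-45158906, forward strand: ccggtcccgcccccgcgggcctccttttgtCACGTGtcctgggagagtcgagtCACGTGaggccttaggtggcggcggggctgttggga
Atg5, chr10:43988101-43988144, forward strand: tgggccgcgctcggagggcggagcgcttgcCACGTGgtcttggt
Bnip3, chr7:146101262-146101327, reverse strand: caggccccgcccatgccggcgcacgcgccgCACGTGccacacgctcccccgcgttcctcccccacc

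Lamp1, a main protein of the lysosomal membrane, held 4 E-boxes within 61 bases before its RefSeq start. Of the 10 E-boxes in these 5 promoters, 9 lay in a Pol2 peak of control cells and 2, both in Vps33a, in an H3K4me3 peak. None of the 10 lay in a control H3K4me2 peak, and 4 lay in one of lens. The words of these 5 promoters thus lay mostly under Pol2 and outside the H3K4me2 and H3K4me3 peaks of control cells. Of the 10, 4 are in Lamp1 alone. The same shares were not computed for E-boxes of other genes, so these counts are not shown to be particular to the members. A word found in this way is a description of the sequence, and binding of Tfeb was not measured.

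A Pax6 peak in the window was found for 1 of the 31 members, Wipi2, against 1.57% of all genes, and the same gene was the 1 member with Pax6 at the promoter, against 0.255%. Wipi2 binds the lipid made by Pik3c3 and brings the conjugation machinery to the membrane. Its Pax6 peak was enriched 16.6-fold, with 41.8 as its −log10 q. It ranked 9 of 504 Pax6 peaks by fold, and its summit lay at −115 bp from the start. The sequence of this peak up to the base before the start is shown, in mm9 on the forward strand, since it carries the strongest Pax6 signal at any member; capitals mark CATGCG.
Wipi2, chr5:143105259-143105495: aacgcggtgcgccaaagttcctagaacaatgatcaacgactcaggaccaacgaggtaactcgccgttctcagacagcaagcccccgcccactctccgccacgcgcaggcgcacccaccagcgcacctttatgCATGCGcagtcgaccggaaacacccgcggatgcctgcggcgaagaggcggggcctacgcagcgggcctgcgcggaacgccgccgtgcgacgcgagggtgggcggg

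The word CGCATG, the other strand of CATGCG, was chosen after this sequence was seen. It occurred within 100 bp of 41 of the 504 Pax6 summits (8.13%, 95% Wilson interval 6.05 to 10.9) and in 18 of 1008 windows of the same length 500 bp to either side (1.79%, 1.13 to 2.81). TCACGC, part of the known Pax6 paired domain site, was found at 44 summits (8.73%, 6.57 to 11.5) and in 17 side windows (1.69%, 1.06 to 2.68), and it was not in the Wipi2 peak. These intervals cover counting error only. TCACGC ends in the CGC that opens CGCATG, so a single site can hold both words. Summits with both were not counted, and the counts of the words are not independent.

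At Wipi2 the histone marks flanked the Pax6 peak. Each of the 5 H3K4me2 and H3K4me3 lists held 2 peaks at this promoter, separated by 281 bp for H3K4me2 in control, 327 bp in Pax6 KD and 141 bp in lens, and by 251 and 259 bp for H3K4me3 in control and Pax6 KD. The Pax6 summit fell in the gap in 4 of the 5 lists and, in lens, inside the upstream peak. Paired promoter peaks were not particular to Wipi2. Atg5 and Bnip3, with no Pax6 peak in the window, also had 2 of each mark in control cells. Other members, such as Becn1, had 1 of each. The downstream H3K4me3 peak stood at percentile 91.6 of its list in control and 91.2 in Pax6 KD, where 100 is the strongest peak by fold. The downstream H3K4me2 peak was at 99.2, 96.7 and, in lens, 73.5. The weaker upstream H3K4me3 peak went from percentile 36.8 in control to 25.6 in Pax6 KD, and the upstream H3K4me2 peak from 86.0 to 87.7, with 89.0 in lens. Thus the upstream H3K4me3 peak stood lower in Pax6 KD, while the downstream one moved by 0.36 points. For scale, the strongest H3K4me3 promoter peak was at least 10 points lower at 21.3% of genes. The 1000 bp H3K4me1 island of control cells, 1054 bp inside the gene, had no counterpart in Pax6 KD. It held 29 ChIP and 15 input reads. Of genes with H3K4me1 and H3K4me3 at the promoter in control, 57.1% had no island there in Pax6 KD. The part of Pax6 in these differences was not tested.

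Within 50 kb a second member, Rb1cc1, had a Pax6 peak, so that 2 of 31 did, against 3.48% of all genes. Rb1cc1 encodes the scaffold of the Ulk complex, also known as FIP200. This peak lies at chr1:6279889-6280028, 13160 bp past the end of the gene, in no protein-coding gene. Its fold was 6.33, at percentile 36.7 of the Pax6 list. It overlapped H3K4me1 and H3K4me2 in both control and Pax6 KD cells and no H3K4me2 peak of lens. No other member had a Pax6 peak within 50 kb.

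**Figure D1:**
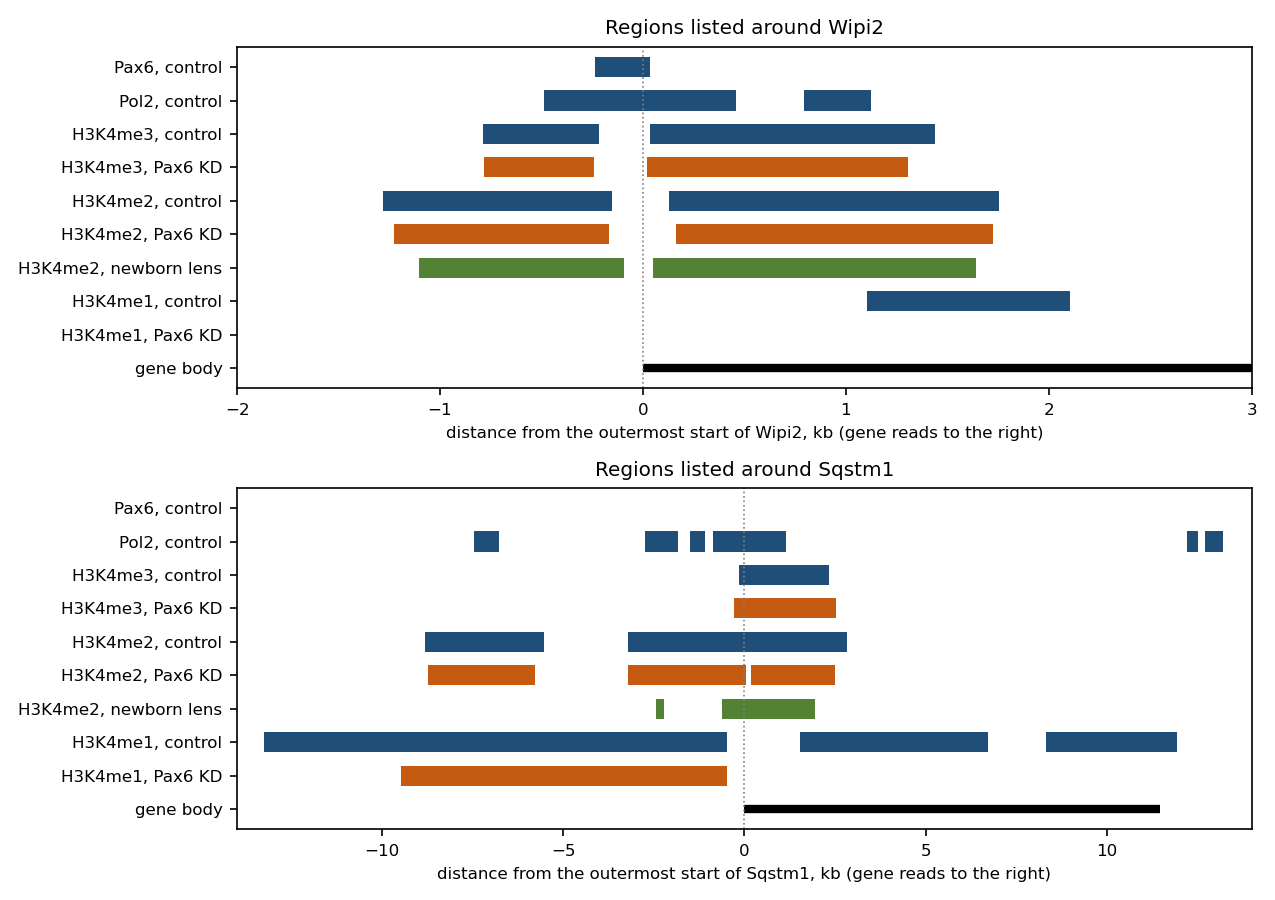
Regions of each list around Wipi2 and Sqstm1, by distance in kb from the outermost start of the gene; blue bars are control αTN4, orange Pax6 KD, green newborn lens, and the black bar is the gene body. At Wipi2 the Pax6 peak lies over most of the space between 2 peaks of H3K4me2 and of H3K4me3, and at Sqstm1 the upstream H3K4me2 of αTN4 cells is nearly absent from lens.

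The 31 genes were marked as active promoters in nearly every list. H3K4me3 was present at all 31 promoters in control and again at all 31 in Pax6 KD, against 49.1% of all genes in control. H3K4me2 was present at all 31 in control, against 58.2% of genes, at all 31 in Pax6 KD and at all 31 in lens, against 66.8%. Pol2 was present at 30 of 31, against 48% of genes. Since every member has H3K4me3, the closer comparison, chosen after the data were seen, is with the 10968 genes that have it too: of these, 94.4% had Pol2, 99.7% H3K4me2 in control and 99.6% H3K4me2 in lens. Read against these shares, the members' counts were those of active promoters in general. No comparison in this text has a replicate, as each list comes from 1 library, and differences between lists are given without a test.

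The strength of the marks differed widely between members. The control H3K4me3 peak of the promoter stood at a median percentile of 85.1 over the members and 67.1 over all genes with a peak. It ranged from 16.96 at Atg10, which conjugates Atg12 to Atg5, to 99.9 at Atg13, the regulatory subunit of the Ulk kinases. Next to Atg13 came Nbr1, a receptor for ubiquitylated cargo, at 98.6, and Lamp1 at 98.1. The lowest after Atg10 were Pik3c3 at 39.2 and Tfeb at 41.4, a main regulator of lysosomal genes. The H3K4me2 peaks varied less by percentile, from 72.9 at Map1lc3a to 99.9 at Ulk1 in control. The same held over all genes with H3K4me3 at the promoter in control. From p10 to p90 of these genes, H3K4me2 ran from percentile 75.2 to 98.4 and H3K4me3 from 28.3 to 93.9. The narrower range is thus not particular to the members.

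Pol2 and H3K4me3 did not rank the members alike. Sqstm1, the p62 receptor, had the highest Pol2 percentile, 98.7, followed by Ulk1 at 93.9 and Map1lc3b, the LC3B gene, at 91.6. The lowest Pol2 percentiles were 38.6 at Lamp1, 40.2 at Vps39 and 43.7 at Gabarapl1. Lamp1 thus stood near the top of the members for H3K4me3 and at the bottom for Pol2, and Atg10, with the lowest H3K4me3, had Pol2 at percentile 83.7. The median Pol2 percentile was 72.7 over the 30 members with a peak and 70.9 over all genes with one.

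Among genes known from work on lens fibre organelles, Becn1 had H3K4me3 at percentile 93.8 in control, Atg5 at 63.4, and Bnip3l, a receptor for mitochondria, and Fyco1, an adaptor of Rab7 and kinesin mutated in cataract, at 42.4 each. In lens, H3K4me2 stood at percentile 98.3 at Becn1, 84.4 at Atg5, 76.5 at Bnip3l, 85.9 at Fyco1 and 81.5 at Tfeb. All were thus marked in newborn lens, at different strengths.

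**Figure D2:**
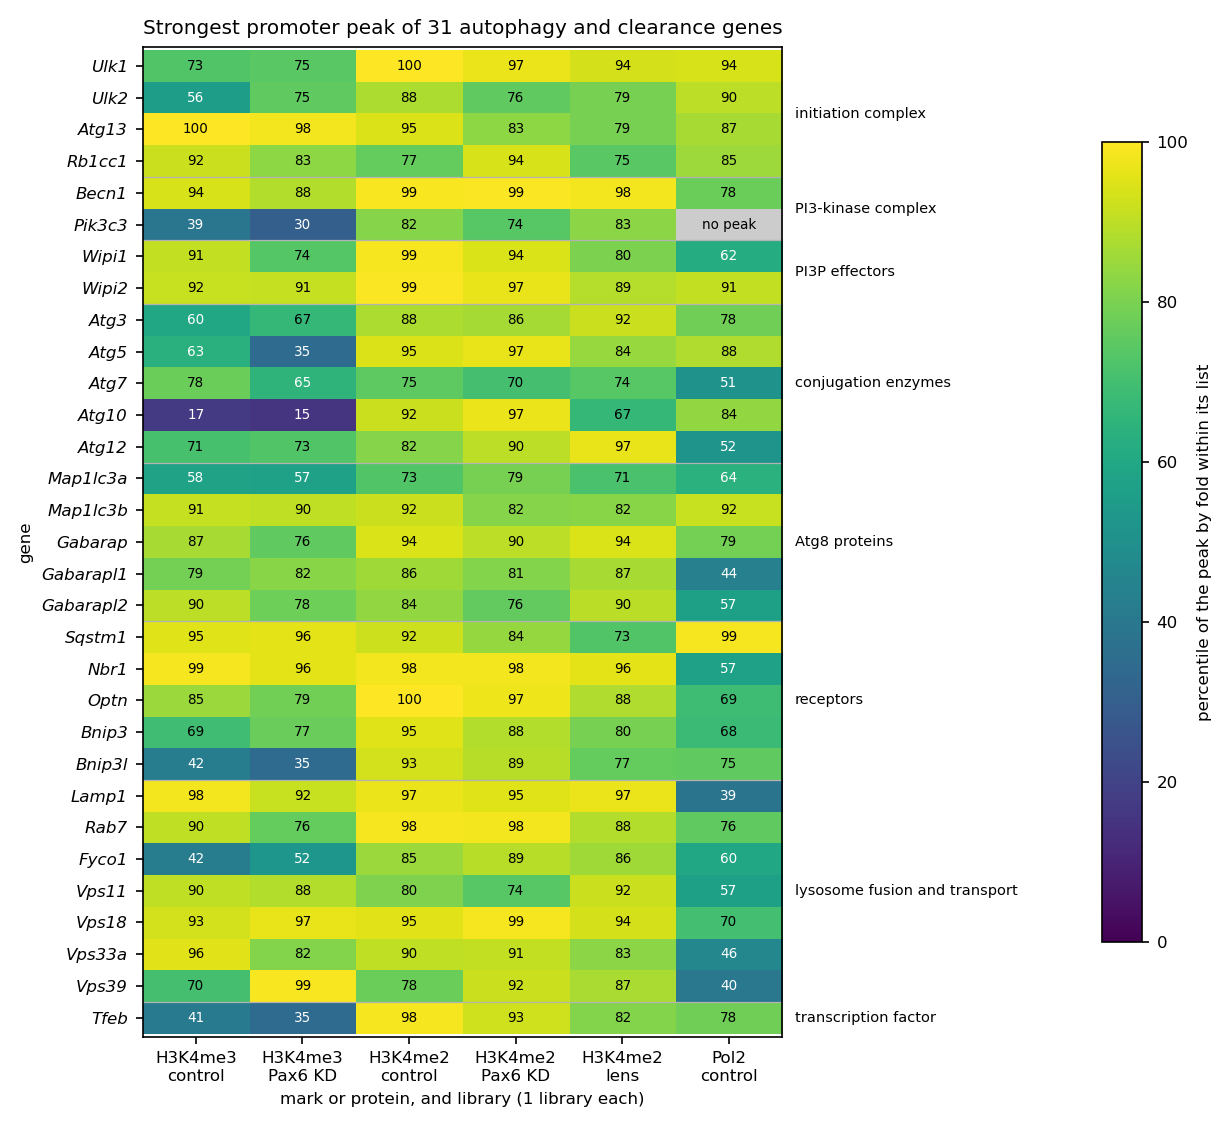
Percentile by fold enrichment, within its own list, of the strongest peak at each promoter of the 31 genes (rows, by role) in 6 lists (columns, 1 library each); yellow is 100, dark purple is 0 and grey marks no peak. Every cell but Pol2 at Pik3c3 holds a peak, and H3K4me3 ranges from 16.96 at Atg10 to 99.9 at Atg13 in control.

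Pik3c3, the catalytic lipid kinase, was the 1 member with no Pol2 peak in its window. It had H3K4me3 in both αTN4 lists and H3K4me2 in all 3. The nearest Pol2 peak to its start lay 1336338 bp away. Pik3c3 is on chromosome 18, where 88.6% of promoters with H3K4me3 had Pol2, the lowest share of the 20 chromosomes, which had a median of 94.6%.

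In αTN4 cells the chromosomes differed in the input reads listed in the H3K4me1 islands, and these values touch the comparisons below. The median island of control cells held from 7.92 input reads per kb on chromosome 12 to 15.6 on chromosome 3. The islands' length in Pax6 KD, as a percent of that in control, ran from 22.5% on chromosome X to 82.9% on chromosome 3, and Spearman's rho with the input reads over the 20 chromosomes was 0.92. The H3K4me2 length in lens, as a percent of control αTN4, ran from 58.2% on chromosome 15 to 125% on chromosome 12, with a rho of −0.94. These rho values are descriptions over chromosomes that share their libraries. For the H3K4me3 length in Pax6 KD as a percent of control, which ran from 87.2% to 94.6%, rho was 0.83. For the H3K4me2 length in Pax6 KD, which ran from 81.3% to 89.6% of control, rho was weaker, at −0.32. The part of the input level in the differences at single genes was not tested, and values of the own chromosome are given for the genes with the larger differences in length.

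**Figure D3:**
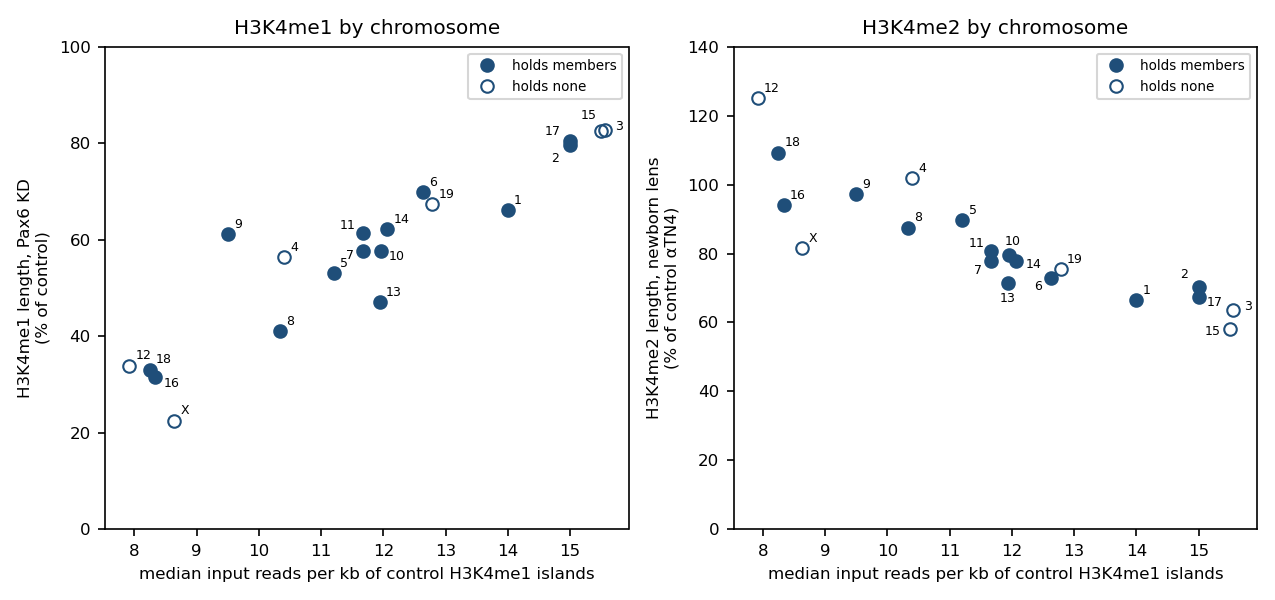
Each point is 1 of 20 chromosomes, labelled by its name, with median input reads per kb of control H3K4me1 islands on the horizontal axis; the left panel gives H3K4me1 length in Pax6 KD and the right panel H3K4me2 length in newborn lens, both as percent of control αTN4. Filled points hold members, and chromosomes with more input reads kept more H3K4me1 in Pax6 KD and had less H3K4me2 in lens.

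The comparison of newborn lens with αTN4 cells asks how far the cell line carries the H3K4me2 of the tissue at these genes. H3K4me2 peaks covered 168 kb of the members' windows in control αTN4 cells and 126 kb in lens, which is 75.0% of control, against 87.8% over all genes. Genes with much H3K4me2 weigh most in these sums, such as Atg7 with 23419 bp in control and 6943 bp in lens. The log2 ratio of lens to control length had a median of −0.21 over the members and −0.17 over the 15303 genes with peaks in both. Relative to that median, 3 of 31 members were at least 2-fold lower in lens, against 11.6% of genes, and 1 was at least 2-fold higher, against 11.5%. Both counts were close to or below the shares over all genes.

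The 3 lower members were Atg7, Sqstm1 and Atg10. Atg7, the E1-like enzyme of both conjugation systems, had 23419 bp of H3K4me2 in control, 19159 bp in Pax6 KD and 6943 bp in lens, a relative log2 difference of −1.59 between lens and control. Atg10 had 10209, 8214 and 3707 bp, a difference of −1.30. Against the median gene of their own chromosome the differences were −1.52 for Atg7 and −1.26 for Atg10. With 50 kb to each side they were −0.31 and −0.83, and neither was then past 2-fold. Both are long genes, and most of their control peaks lay over 2 kb from every protein-coding start.

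Sqstm1 had 9320 bp in control, 8535 bp in Pax6 KD and 2793 bp in lens, a difference of −1.57, and of −1.56 within chromosome 11. In αTN4 cells the mark spread over 6024 bp at the promoter and over a second peak of 3296 bp whose near edge lay at −5523 bp, inside the neighbouring gene Mgat4b. In lens, the promoter peak was 2559 bp wide and a peak of 234 bp was the only other. The window also held 6 Pol2 peaks over 4881 bp, more peaks than any other member had. With the gene body alone as the window, the relative difference of Sqstm1 was −0.43, so that most of the difference lay outside the gene body.

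The higher member was Atg12, the ubiquitin-like protein joined to Atg5. It had 2495 bp in control, 2200 bp in Pax6 KD and 5446 bp in lens, a relative log2 difference of 1.29. Of the lens length, 1855 bp was a peak at the neighbouring gene Cdo1, 12597 bp from the start of Atg12, and with the gene body alone the difference was 0.36, short of 2-fold. The next was Pik3c3, with 2820, 3315 and 4930 bp and a difference of 0.97. Both lie on chromosome 18, where the length in lens was 109% of control over the whole chromosome. Relative to the median gene of that chromosome, the differences were 1.08 for Atg12 and 0.76 for Pik3c3.

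Fyco1 had 5623 bp in control, 4280 bp in Pax6 KD and 2830 bp in lens, a relative difference of −0.82, and of −1.03 against the median gene of chromosome 9. It kept both promoter peaks in lens, and its 5 distal H3K4me2 peaks of control cells had no counterpart there. Vps18, a core subunit of the tethering complexes of the lysosome, followed at −0.51. At the upper end, Becn1 was at 0.27, Ulk2 at 0.24 and Wipi2 at 0.24, while Tfeb was at −0.38, Atg5 at −0.13 and Bnip3l at −0.04.

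Peaks over 2 kb from every protein-coding start were then counted apart. The windows held 62 such H3K4me2 peaks in control, 52 in Pax6 KD and 33 in lens, with 18 of the 62 at Atg7 and 13 at Atg10. Of the 62 control peaks, 7 overlapped a lens peak, against 19.4% of all such peaks, and 43 overlapped a Pax6 KD peak, against 76.8%. In the other direction, 10 of the 33 lens peaks overlapped a control peak, against 27.4%. At Atg7, 1 of the 18 control peaks overlapped a lens peak, and at Atg10 0 of the 13, so these genes weigh on the count. The promoters were thus shared by lens and cell line at every member, and most distal peaks were not. The same held over all genes, where 99.6% of promoters with H3K4me3 in control had H3K4me2 in lens and most distal peaks had no counterpart. Peaks in the same gene are not independent of each other.

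The comparison of control with Pax6 KD cells asks how the H3K4 marks around the genes differed when an shRNA against Pax6 was present. H3K4me1 islands, the broad regions called for this mark, covered 286 kb of the members' windows in control and 169 kb in Pax6 KD, which is 59.0% of control, against 63.0% over all genes. In control, 26 of the 31 members had an island in the window. In 16 of the 26 the length was at least 2-fold lower in Pax6 KD, against 55.5% of genes with an island, and in 9 of these no island was left, against 39.7%. None of the 26 was at least 2-fold higher, against 1.79%. The members' fall was therefore close to that over all genes.

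Divided by the share that each chromosome kept, a setting added after the data were seen, 11 of the 26 were at least 2-fold lower, against 45.9% of genes. The 9 members with no island left were Pik3c3, Wipi2, Map1lc3a, Map1lc3b, Gabarap, Gabarapl2, Bnip3, Lamp1 and Vps11. The 5 with none in either condition were Ulk2, Atg3, Atg12, Fyco1 and Vps39.

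By role, the Atg8-family genes had the lowest share of length kept. All 5 had an island at the promoter in control and none there in Pax6 KD, and their length fell from 33200 to 4200 bp, all of it at Gabarapl1. For comparison, 57.1% of genes with H3K4me1 and H3K4me3 at the promoter in control had no island there in Pax6 KD. Gabarap had 11000 bp in control and 0 in Pax6 KD, and Gabarapl2 7400 bp and 0. Map1lc3b and Gabarapl2 lie on chromosome 8, which kept 41.1% of its H3K4me1 length, Gabarap on chromosome 11, which kept 61.5%, Map1lc3a on chromosome 2, which kept 79.6%, and Gabarapl1 on chromosome 6, which kept 69.8%. The windows of Gabarap, Gabarapl2 and Map1lc3b hold starts of other genes, so the islands cannot be given to these genes alone.

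The receptors went from 53107 to 23438 bp, with Nbr1 from 10138 to 2800 bp, Bnip3l from 13125 to 3525 bp and Sqstm1 from 18329 to 9000 bp. Bnip3l lies on chromosome 14, which kept 62.2%, and Nbr1 and Sqstm1 lie on chromosome 11. The conjugation enzymes went from 100223 to 68431 bp, most of it at Atg7, which had 71431 bp in control and 54831 bp, or 76.8%, in Pax6 KD. Atg10 had 22992 and 8000 bp, or 34.8%, on chromosome 13, which kept 47.1%. The 4 genes of the initiation complex together went from 19929 to 17729 bp.

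In 4 of the 17 members with islands in both conditions the islands were longer in Pax6 KD, against 23% of such genes. Atg13 had 5400 bp in control and 7400 bp in Pax6 KD, Optn, a receptor of mitochondria and bacteria, 6513 and 8113 bp, and Tfeb 27800 and 29200 bp. The other was Rb1cc1, with 6729 and 6929 bp, and next came Atg5 at 96.6% of control. These 4 lie on chromosomes 2, 17 and 1, which kept 79.6%, 80.5% and 66.1% of their H3K4me1 length and had 14 to 15 input reads per kb, against a median of 11.8 over the chromosomes. Other members on chromosome 2 kept less than the chromosome, with 0% at Map1lc3a and 69.4% at Vps18, and Vps39 had no island in either condition. The part of the chromosome in these values was not tested.

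**Figure D4:**
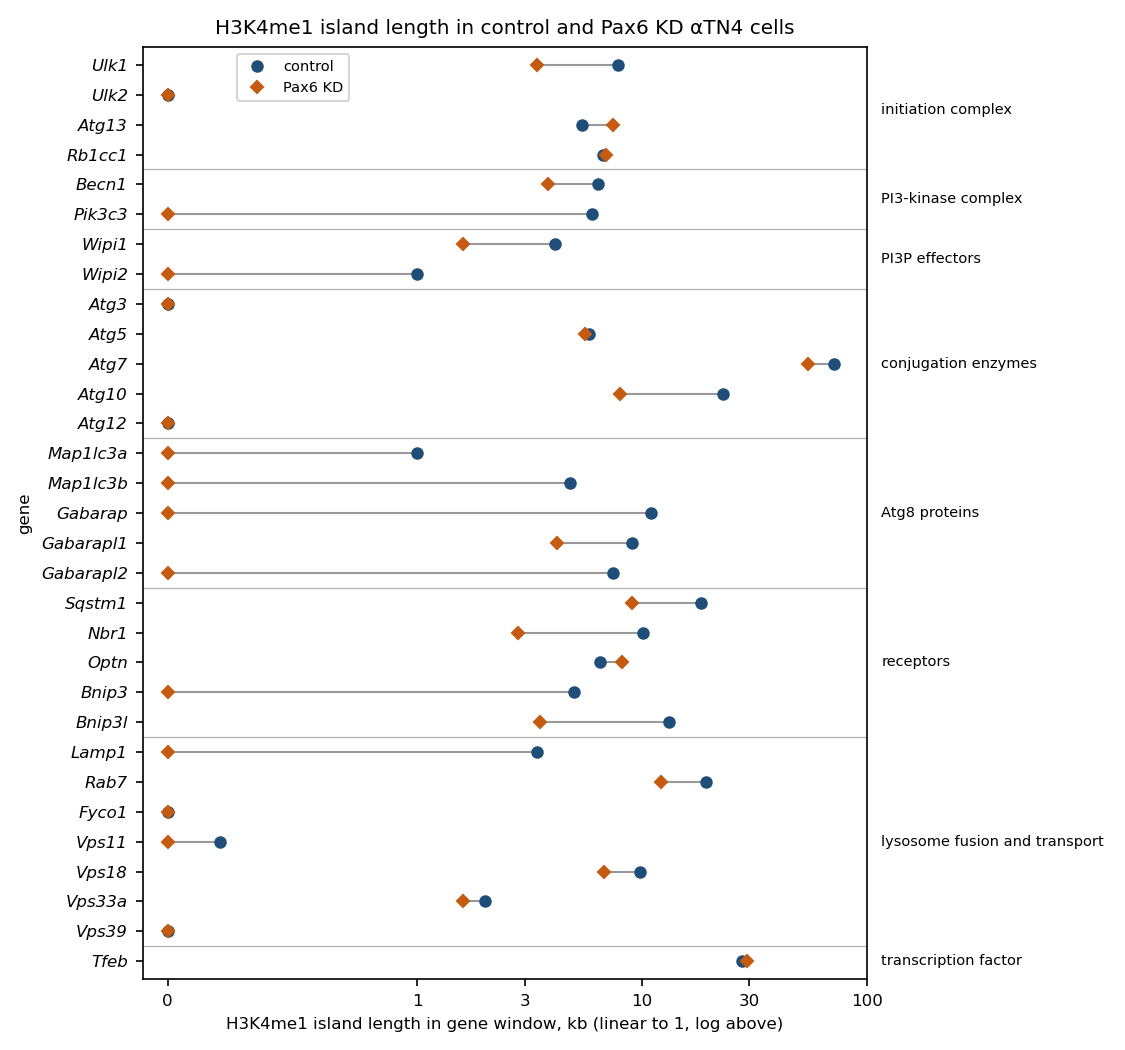
H3K4me1 island length in the window of each of the 31 genes, in kb on an axis that is linear up to 1 and logarithmic above, in control (blue circles) and Pax6 KD (orange diamonds) αTN4 cells, 1 library each. Lines join the values of a gene: 9 of the 26 members with an island fall to 0, and Atg13, Optn, Tfeb and Rb1cc1 end to the right of control.

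ChIP reads per kb of island went from 23.4 to 19.5 over the members and from 23.1 to 21.1 over all genes. Over the members the input reads per kb went down as well, from 12.2 to 10.1, so that ChIP reads per input read were 1.92 in control and 1.94 in Pax6 KD, against 1.5 and 1.43 over all genes. The mark in the islands that were left was thus lower per kb and not per input read. In the 17 members with islands in both conditions, ChIP reads per kb were lower in Pax6 KD in 14, against 85.4% of genes, and ChIP reads per input read in 7, against 44.6%. The median log2 difference was −0.24 over these members and −0.27 over all genes, with no correction for the depth of the libraries. Atg13 had 29.1 reads per kb in control and 15.1 in Pax6 KD, with a 95% exact counting interval of −1.30 to −0.58 for the log2 difference. Tfeb had 25.6 and 18.9, with an interval of −0.60 to −0.28. Per input read, Atg13 had 1.69 in control and 1.27 in Pax6 KD, and Tfeb 1.78 and 1.93, so that Tfeb was lower per kb and higher per input read.

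At the promoters, H3K4me1 was present at 21 of 31 members in control, against 36% of all genes and 57.8% of genes with H3K4me3. In Pax6 KD it was present at 5, which were Sqstm1, Wipi1, Tfeb, Rab7 and Optn, against 16.8% and 25.9%. Thus 16 of the 21 had it in control only, against 57.1% of genes with both marks in control. Without the members that share their promoter with another gene, 17 of 25 had it in control and 4 in Pax6 KD.

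No member promoter lost H3K4me3 or H3K4me2 in Pax6 KD. The strength was followed as the change in the percentile of the strongest promoter peak, Pax6 KD minus control. This value is not affected by a change of scale between lists. The strongest peak was chosen in each list apart, so it can be a different peak in control and in Pax6 KD. For H3K4me3 the members had a median change of −1.81 points, against −1.62 over all genes, and 21 of the 31 were lower in Pax6 KD, against 58.4% of genes. In 7 of 31 the peak was at least 10 points lower, against 21.3% of genes, and in 3 at least 10 points higher, against 12.5%.

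Atg5 had the largest fall, from percentile 63.4 in control to 35.1 in Pax6 KD, a change of −28.2 points. Its strongest peaks were different ones, chr10:43987192-43988083 in control and chr10:43988248-43989325 in Pax6 KD. No single peak of Atg5 is thus shown to fall by this much. Next came Wipi1, from 90.8 to 73.6, Vps33a, from 95.6 to 81.5, Rab7, from 90.3 to 76.3, and Atg7, from 77.5 to 64.9. Gabarapl2 changed by −11.8 points and Gabarap by −11.4. The 7 came from several roles. In the other direction, Vps39, a subunit of the HOPS tethering complex, went from 70.4 to 98.9, and Ulk2 from 55.6 to 75.4. Fyco1 changed by 10.1 points, Bnip3 by 7.99 and Atg3 by 6.71.

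These changes depend on the measure of strength. With peaks ranked by −log10 q, 3 members in place of 7, Atg5, Wipi1 and Gabarapl2, were at least 10 points lower, and Rab7 was 5.69 points higher in Pax6 KD. With the widest promoter peak in place of the strongest, Atg5 changed by −5.46 points.

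For H3K4me2 the median change was −2.53 points over the members and −0.92 over all genes, and 20 of 31 were lower, against 57.3% of genes. In 3 of 31 the peak was at least 10 points lower, against 10.9% of genes, and in 2 at least 10 points higher, against 8.44%. The lower members were Ulk2, from 87.8 to 75.7, Atg13, from 94.9 to 83.1, and Map1lc3b, from 92.0 to 81.9, with Sqstm1 at −8.22 and Pik3c3 at −7.83 points next. The higher members were Rb1cc1, from 76.6 to 93.8, and Vps39, from 77.6 to 92.0, followed by Atg12 at 8.21, Map1lc3a at 6.60 and Atg10 at 5.20 points. Vps39 was thus higher for both marks, while Ulk2 was higher for H3K4me3 and lower for H3K4me2. Ranked by −log10 q, neither Rb1cc1, at 6.07 points, nor Vps39, at 6.92, passed 10 points for H3K4me2, Atg12 did at 10.5, and Atg13 changed by −3.72. With the widest peak, Rb1cc1 changed by 1.31 points and Ulk2 by −13.5. At Ulk2 the strongest H3K4me2 peaks, chr11:61666365-61668410 in control and chr11:61668676-61669539 in Pax6 KD, do not overlap.

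**Figure D5:**
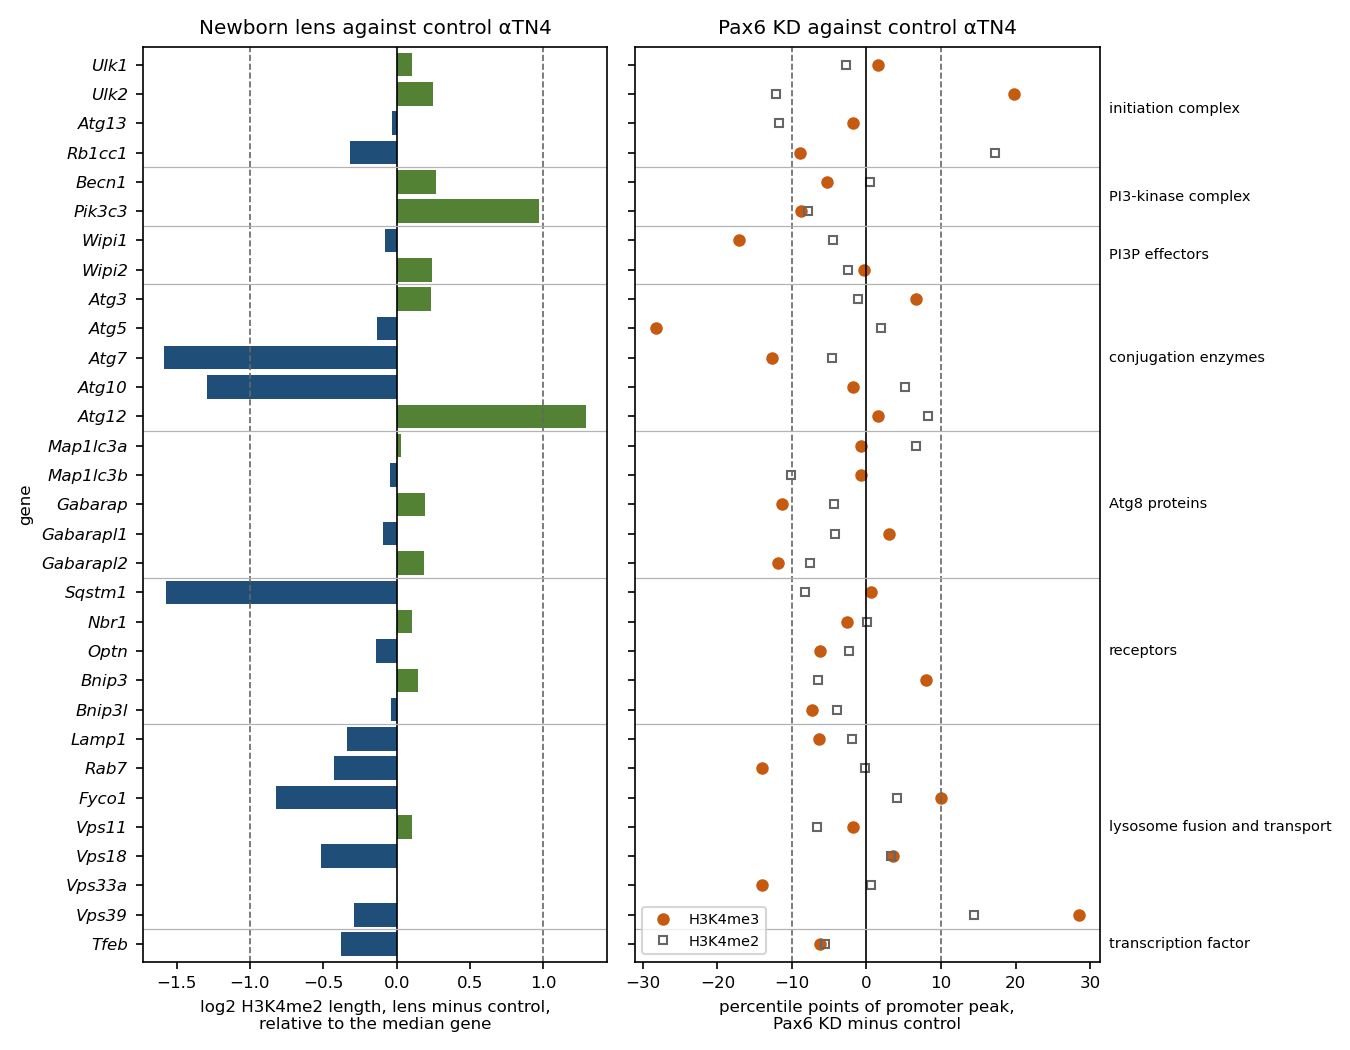
The left panel gives the log2 H3K4me2 length of newborn lens minus control αTN4 in each window, relative to the median gene. The right panel gives the percentile of the strongest promoter peak of each list, Pax6 KD minus control, for H3K4me3 (filled) and H3K4me2 (open). The strongest H3K4me3 peaks of Atg5 in control and Pax6 KD do not overlap. Dashed lines mark 2-fold and 10 points: Atg7, Sqstm1 and Atg10 lie below and Atg12 above the first, and Atg5 at −28.2 and Vps39 at 28.5 points are the ends of the second.

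A further list of 51 genes, all found, was read in the same way. Pol2 was present at 50 of their promoters, against 48% of all genes, and H3K4me3 at 49, against 49.1%. H3K4me2 was present at 50 in control, against 58.2%, and at 50 in lens, against 66.8%. Dnase2b, the DNase that degrades DNA in lens fibres, was the gene with neither Pol2, H3K4me3 nor H3K4me2 at its promoter in αTN4 cells and no H3K4me2 there in lens, and Atg9b lacked H3K4me3. The absence at Dnase2b holds for its annotated starts only. Its window of 211800 bp held 23470 bp of H3K4me2 in control and 16376 bp in lens, and 48600 bp of H3K4me1 in control. Dnase2b is known to be switched on in differentiating fibres.

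H3K4me1 was at 28 of the 51 promoters in control, against 36% of all genes and 57.8% of those with H3K4me3 there. In Pax6 KD it was at 11, against 16.8% and 25.9%. Of the 41 windows with an island, 27 were at least 2-fold lower, against 55.5% of genes with an island. In 15 none was left, against 39.7%. In lens, 6 of the 51 were at least 2-fold lower for H3K4me2 length, against 11.6% of genes, and 1, Wdfy3, higher, against 11.5%. H3K4me3 was at least 10 points lower in 9 of 49, against 21.3%, and higher in 4, against 12.5%. H3K4me2 was lower in 4 of 50, against 10.9%, and higher in 5, against 8.44%. Pax6 lay in the window of 1, against 1.57%, and within 50 kb of 2, Atg2a and Wdfy3, against 3.48%.

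The cells and the tissue were checked by H3K4me2 at promoters of marker genes. Of 12 lens markers in the annotation, lens had all 12, against 66.8% of all genes, and control αTN4 cells 7, against 58.2%. The count in control cells was thus close to the share over all genes. The 5 without the mark in αTN4 cells were Foxe3 and the fibre genes Bfsp1, Bfsp2, Mip and Lim2. Of 14 markers of other cells, lens had 6 (Crx, Nrl, Rax, Dct, Cdh5 and Col2a1) and control cells 1, Pecam1. The part of other cells in the lens H3K4me2 at the members was not tested. In bulk chromatin, fewer marked cells and less mark per cell cannot be told apart. The lists held 504 Pax6 peaks, 17204 Pol2 peaks, 66274, 65852 and 56214 H3K4me2 peaks in control, Pax6 KD and lens, 14869 and 14301 H3K4me3 peaks, and 38007 and 18417 H3K4me1 islands. Names of the control H3K4me2 peaks hint that replicates were pooled, which the methods do not state. Total reads per library are not given in these lists, so the depth behind a peak is unknown.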

How the data were processed

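ChIP-seq of control and Pax6 KD αTN4 cells and of newborn lens was analysed from 9 lists of regions, 1 library per condition. RNA-seq was not used. Alignment by the authors was to mm9 with Bowtie, and they called MACS2 peaks (Pax6, Pol2, H3K4me2, H3K4me3) and SICER islands (H3K4me1) at default settings, and left out blacklisted regions. MACS2 and SICER are named in the submitters' processing notes too, with no version. The MACS2 lists hold the fold enrichment, a ratio over background deposited by the authors, and the deposited −log10 of p and q. The SICER lists hold a count, deposited by the authors, of ChIP and control reads per island, called input reads here since the control is not named, and a deposited fold, p-value and FDR. A strict threshold or a shallow library can leave a weak region unlisted, so absence from a list is not absence of the mark. No column of per-sample values was left unused for want of a sample (0).

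Genes came from GENCODE vM1 (mm9). The 31 members, the roles, the further list of 51 genes and the marker lists were chosen with earlier results of these data known. An overlap of at least 1 bp counted. A peak's percentile is its rank by fold in its own list. With 1 library per condition there is no test: counts and medians stand beside those over all genes, and a call needs a 2-fold change of length or 10 percentile points. Density intervals are exact (binomial, 95%) and cover counting error only. Named genes were those with Pax6 in the window or a missing mark, the 5 highest and 5 lowest of each comparison, the 3 highest and lowest by H3K4me3 and Pol2, and Fyco1, Bnip3l, Becn1, Pik3c3, Atg5 and Tfeb; other genes named past a threshold or within a role were chosen after their values were seen, as were the comparison by chromosome and the word CGCATG. Promoters were RefSeq's (GRCm38.p6), with 23 members matched; Atg12, Becn1, Map1lc3a, Pik3c3, Rb1cc1, Bnip3l, Vps11 and Vps39 had no entry. Alternatives were promoters of 500 bp or at the outermost start, −log10 q of at least 5, an overlap of 200 bp, ranks by q, the widest peak, windows of the gene body or 50 kb, peak counts, an FDR of at most 1e-06 and reads per input read. The scripts used Python 3.11.15, pandas 2.3.3, SciPy 1.17.1, pysam 0.24.0 and samtools 1.23.1 and were tested on simulated data.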

Additional observations from a re-analysis of the deposited data

How the results depend on the processing

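Of 92 counts recomputed under another setting, 75 were within 1.5 times the value reported. The setting enters the computation of each count with 1 exception. This is H3K4me1 at the promoter in control under the 200 bp overlap, which was applied to peaks and not to islands, so it could not change. The number of members with H3K4me3 in control or Pol2 at the promoter was among the 75 under each of the promoter, q and overlap settings. With promoters of 500 bp, H3K4me1 was at 7 members in control in place of 21. With the gene body as the window, 14 members had no H3K4me1 island left in Pax6 KD in place of 9, 8 in place of 14 had fewer ChIP reads per kb, and 0 in place of 1 were at least 2-fold higher in lens. Windows of 50 kb gave 3 higher members in lens, and 2 members with Pax6. With reads taken per input read, 7 members in place of 14 were lower in Pax6 KD. Peak counts in place of length gave 6 lower and 2 higher members in lens, and peaks with −log10 q of at least 5 gave 2 higher. Ranks by −log10 q gave 3 members in place of 7 with lower H3K4me3 and 1, Atg12, in place of Rb1cc1 and Vps39 with higher H3K4me2, and turned Rab7 to 5.69 points higher; the outermost start alone gave 1 with higher H3K4me2, Vps39. Within 500 bp of GENCODE starts, CACGTG was found in 9 of 23 members, against 23.1% of genes. TCACGTGA was found there in 4 of 23, against 2.43%.

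Settings added after the data were seen gave, for the 15 members with no other start in the window, 14 with an island in control, 9 at least 2-fold lower in Pax6 KD and 5 with none left. Over all genes with an island, whatever starts their windows held, 55.5% were at least 2-fold lower and 39.7% had none left. Relative to the median gene of the own chromosome, 4 members were at least 2-fold lower in lens (Atg7, Sqstm1, Atg10 and Fyco1) and 1 higher (Atg12). Shares over all genes are not given for these settings, nor for gene-body windows and peak counts. The cause of these differences between settings was not tested, except that fewer members enter where some were left out. No paired analysis was possible because each condition has 1 library. Peaks carry no read counts, so no interval can be set on a rank or a length, and small changes cannot be told from the spread between libraries.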
